A study of Canis lupus familiaris with 77 samples.

Results

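The miR-183/96/182 cluster is a group of 3 neighbouring miRNA genes, and its mature members in the dog are cfa-miR-183, cfa-miR-96 and cfa-miR-182. The rows of the deposited table that bear 1 of these 3 names first were taken, which gave 3 of the 650 miRNAs with a read in any library. Small RNA was sequenced (miR-seq) from 16 tissues of untreated male Marshall beagle dogs about 10 months old, none of them genetically altered. Of the 76 libraries, sciatic nerve had 2, colon had 4 and every other tissue had 5. The solid organs were rinsed by perfusion, whereas plasma and bone marrow were collected and extracted in other ways, so tissue and extraction cannot be told apart for those 2. By the study's methods RNA of the sciatic nerve was pooled over dogs and then divided, while another passage names individual samples, so the 2 nerve libraries may hold RNA of the same dogs. By the study's methods the tissues came from the same 5 dogs, but the labels do not tie libraries to dogs. Every test here treats libraries of different tissues as independent, and the p-values measure the spread between libraries.

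The 3 genes are transcribed together in vertebrates. The members carry related seeds, the stretch that pairs with target mRNAs, and are best known from sensory cells, among them the photoreceptors of the retina, the hair cells of the inner ear and sensory neurons. They are also present in many epithelia and endocrine cells. None of the 16 tissues was an eye or an inner ear, although the sciatic nerve carries sensory axons. In the RefSeq gene table of the assembly UU_Cfam_GSD_1.0, MIR183, MIR96 and MIR182 were consecutive genes, with LOC102151305 before them and NRF1 after them.

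Each library held between 157871 and 7896424 reads on miRNAs. Levels are given as RPM, the reads of a miRNA scaled to 1000000 reads on miRNAs in its library. A count of 0 allows up to 3 reads, a limit that ran from 0.380 to 19.0 RPM with falling depth. This limit and the 95% Wilson intervals cover counting error only. In the marker miRNAs of their tissue, 7 libraries were far below the others. Testis libraries 2 and 3 held 5368 and 639 RPM of the summed testis miRNAs (34b, 34c, 449a and 202) against 57912 to 107407 in the other testis libraries. Thymus libraries 2, 3 and 5 held 45230 to 56698 RPM of miR-181a and miR-181b against 454852 and 527331 in libraries 1 and 4. Duodenum libraries 3 and 4 held 23478 and 5976 RPM of the gut epithelium miRNAs 192, 194 and 215 against 88623 to 521024 in the rest. Members' results that changed without these 7 are given both ways. Brain libraries 2 and 5 were singled out in another way, for the high level of the members themselves, so a value without them is a description whose direction that choice fixes. For the brain miRNAs 124, 9 and 128 they held 74634 and 42495 RPM against 68096 to 90728 in the other brain libraries, so library 5 was the lowest. Brain library 3 was high in other listed miRNAs, with 23546 RPM of miR-192 against 2518 to 3151 and 1939 RPM of miR-34c against at most 161.2, and was kept.

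The members differed widely in level. Of the reads of the cluster over all libraries, 90.1% were miR-182, 9.73% were miR-183 and 0.136% were miR-96. miR-182 was detected in 76 of 76 libraries with 514506 reads, and its tissue median exceeded 100 RPM in 12 tissues. miR-183 was detected in 75 of 76 libraries with 55564 reads, and exceeded a median of 100 RPM in 8 tissues. miR-96 was detected in 46 of 76 libraries with 776 reads in all, and no library reached 100 RPM. By its highest tissue median, miR-182 ranked 58, miR-183 ranked 138 and miR-96 ranked 370 of the 650 miRNAs. A single library, brain library 2, supplied 51.3% of all miR-182 reads and 57.2% of all miR-183 reads.

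miR-182 had its highest median in the pancreas. The 5 pancreas libraries held 4337, 8468, 5115, 7258 and 5938 RPM, a median of 5938 RPM. The 2 sciatic nerve libraries held 6367 and 5304 RPM, within the pancreas range. Of the 71 libraries of other tissues, 6 reached the lowest pancreas library, and they came from sciatic nerve, brain and testis. The lung (median 2764 RPM, range 847.5 to 3033) and the gut followed, with medians of 2628 RPM in colon, 1974 RPM in ileum, 1671 RPM in duodenum and 1460 RPM in jejunum. Testis (1678 RPM), brain (306.7 RPM) and thymus (289.8 RPM) had medians in the middle and the widest ranges. The median was 136.4 RPM in liver, 106.0 RPM in kidney, 96.8 RPM in plasma, 48.4 RPM in skeletal muscle and 38.0 RPM in heart. It was lowest in bone marrow, at 24.6, 8.4, 10.8, 10.6 and 27.6 RPM, which were only 2 to 6 reads a library.

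miR-183 followed a similar order, with sciatic nerve above pancreas. Its sciatic nerve libraries held 814.4 and 867.5 RPM, above every pancreas library. The pancreas libraries held 220.5, 279.1, 281.6, 297.8 and 337.7 RPM. Outside the nerve, 4 libraries reached the sciatic nerve level, all of brain or testis. The other medians ran from 268.1 RPM in lung and 255.1 RPM in duodenum through 187.7 RPM in colon, 166.4 RPM in ileum, 139.0 RPM in jejunum and 124.4 RPM in testis to 33.5 RPM in thymus and 29.3 RPM in brain. They were 11.9 RPM in plasma, 10.8 RPM in bone marrow, 9.76 RPM in liver, 8.29 RPM in kidney, 5.61 RPM in skeletal muscle and 3.58 RPM in heart. In bone marrow these were 1 to 6 reads a library, and in heart 1 to 28.

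miR-96, known for the hearing loss that mutations of its seed cause, was highest in the pancreas. Its 5 pancreas libraries held 22.8, 23.9, 20.6, 29.5 and 23.7 RPM, from 16 to 51 reads each. Of the other 71 libraries, 3 reached this range, all of testis or brain. The next medians were 11.3 RPM in testis, 8.53 RPM in colon, 8.14 RPM in jejunum, 6.49 RPM in duodenum, 4.41 RPM in ileum, 3.60 RPM in lung and 1.97 RPM in thymus. The sciatic nerve libraries held 0 and 1 read of miR-96, although both other members were high there. In 7 tissues (sciatic nerve, bone marrow, heart, kidney, liver, plasma and skeletal muscle) no library had more than 3 reads, and miR-96 was not detectable at this depth in heart, bone marrow or skeletal muscle.

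**Figure D1:**
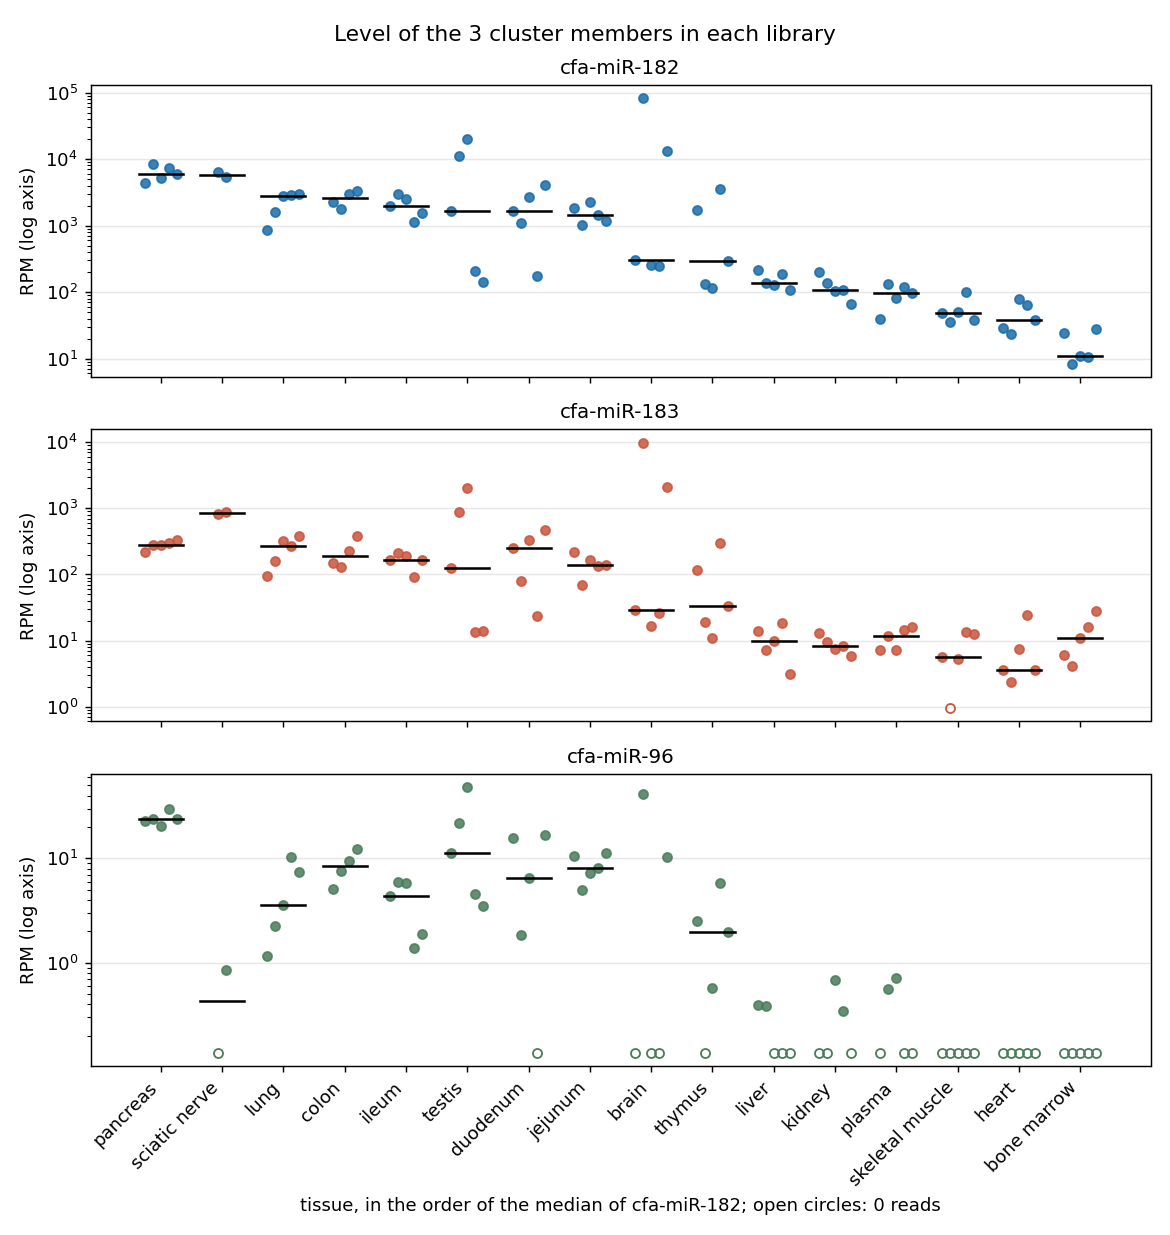
RPM of cfa-miR-182, cfa-miR-183 and cfa-miR-96 (log axis) in each of 76 libraries by tissue, with the tissue median as a line and libraries at 0 reads as open circles at the bottom. Pancreas and sciatic nerve are high with little spread for miR-182, brain, testis and thymus each hold high and low libraries, and miR-96 is near or at 0 in the nerve.

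Tissue enrichment (TE) asks which miRNAs could mark an organ, and needed a mean above 5 times the mean of all other samples, an adjusted p under 0.05 and a tissue median above 100 RPM in at least 1 tissue. Ranks of the tissue against those of all other libraries were tested exactly and two-sided, and p-values were adjusted by Benjamini-Hochberg over the 650 miRNAs of a tissue. None of the members was TE in any tissue, whereas 1.68% of all pairs of miRNA and tissue were called (175 of 10400). Before the limits on fold and level, 7 of the 48 pairs of member and tissue passed the exact test. By tissue, the share of all miRNAs that passed ran from 0% to 40.9% for higher and from 0% to 21.4% for lower levels. The pancreas was higher for miR-182, with a mean of 6223 RPM ± 1657 (SD, n = 5) against 2791 RPM in the other 71 libraries, a fold of 2.23 (adjusted p = 0.00381, exact test). It was also higher for miR-96, at 24.1 RPM ± 3.29 (SD, n = 5) against 4.48 RPM, a fold of 5.39 (adjusted p = 0.000229, exact test), which missed the TE call only by its level. In that tissue 7.69% of all miRNAs were called higher. miR-183 in the pancreas did not pass (adjusted p = 0.0733, exact test), but passed with DESeq2 size factors (fold 1.62, adjusted p = 0.0237) and without the 7 libraries low in tissue markers (adjusted p = 0.0446, exact test), where its ranks were higher while its mean was 0.951 times that of the others.

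The other 5 calls were lower levels. miR-182 was lower in bone marrow (16.4 RPM ± 8.98, SD, n = 5) than in the other libraries (adjusted p = 1.88e-05, exact test), where 13.4% of all miRNAs were called lower. It was lower in heart (46.9 RPM ± 23.8, SD, n = 5, adjusted p = 0.0175, exact test), with 4.92% of all miRNAs called lower there. It was also lower in skeletal muscle (54.5 RPM ± 26.2, SD, n = 5, adjusted p = 0.0346, exact test), with 11.4% of all miRNAs called lower. miR-183 was lower in heart (8.29 RPM ± 9.25, SD, n = 5, adjusted p = 0.035, exact test) and in skeletal muscle (7.43 RPM ± 5.67, SD, n = 5, adjusted p = 0.0346, exact test). Once all libraries were thinned to the smallest one, the calls of miR-183 in heart and of both members in skeletal muscle were lost, while those of miR-182 in bone marrow and heart passed. With 1 library left out, the bone marrow call stayed, but the heart calls were lost without heart library 1, 2 or 5 (miR-182, highest adjusted p = 0.0807) or 1, 2, 3 or 5 (miR-183, 0.146). The skeletal muscle calls were lost without any 1 muscle library (miR-182, highest adjusted p = 0.112) and without muscle library 1, 2, 3 or 5 (miR-183, 0.13).

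The brain had the largest ratios of means and no call. Its mean was 10.2 times the mean of the other samples for miR-182 and 14.6 times for miR-183, but the adjusted p was 0.255 and 0.312 in the exact test. The 5 brain libraries held 306.7, 82068, 254.9, 249.4 and 13005 RPM of miR-182. The highest of them, with a Wilson interval of 81769 to 82369 RPM, made miR-182 the second most abundant miRNA of that library. With medians in place of means, miR-182 in the pancreas was 23.8 times higher and met the TE limits, against 2.57% of all pairs (267 of 10400). Without the 7 libraries low in tissue markers no member was TE either, against 1.73% of all pairs (179 of 10368). With brain libraries 2 and 5 left out as well, which lowers the mean of the other samples by construction, miR-182 in the pancreas (fold 5.64) and miR-183 in the sciatic nerve (fold 8.01) met the limits, against 1.83% of all pairs (189 of 10352).

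The count model edgeR gave a difference with its error for miR-182 and miR-183 in each tissue against the mean of the other 15 tissues, with 480 miRNAs tested on 1 shared estimate of the spread. For miR-96 no such difference is given, since the tissues it is compared with include 6 or 7 at the limit of detection. Over the 32 comparisons of both members, 12 were called higher and 12 lower. Where a member was called higher, so were 18.5% to 45.2% of all miRNAs in that tissue. Where a member was called lower, so were 10.2% to 24.8%.

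Pancreas and sciatic nerve were higher for both members. miR-182 was higher in the pancreas by 3.43 ± 0.45 (log2, SE, adjusted p = 1.59e-09, edgeR) and miR-183 by 2.05 ± 0.54 (adjusted p = 0.00131), with 21.2% of all miRNAs called higher in that tissue. With any 1 library left out, these differences stayed between 3.13 and 3.72 and between 1.89 and 2.37. In the sciatic nerve, where 24.8% were called higher, miR-183 was higher by 3.17 ± 0.69 (adjusted p = 0.00014, edgeR) and miR-182 by 2.77 ± 0.69 (adjusted p = 0.0008). The miR-183 call passed with any 1 library left out (highest adjusted p = 0.0117, edgeR). The miR-182 call missed the threshold without nerve library 1 (2.62, adjusted p = 0.0524, with the remaining library assumed to vary like the other tissues).

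Lower calls held for both members in 6 tissues. For miR-182 and miR-183 in that order, the log2 difference was −6.44 ± 1.08 and −3.40 ± 1.01 in bone marrow, where 24.6% of all miRNAs were called lower. In heart it was −4.08 ± 0.89 and −3.40 ± 0.94, with 17.3% called lower, and in skeletal muscle −3.51 ± 0.86 and −3.35 ± 1.01, with 16.5% called lower. The values were −2.34 ± 0.77 and −3.11 ± 0.89 in liver (12.5% called lower), −2.24 ± 0.76 and −2.89 ± 0.86 in kidney (10.2%), and −2.54 ± 0.79 and −2.37 ± 0.86 in plasma (24.8%). In bulk tissue, fewer cells that make a miRNA and less of it per cell cannot be told apart. The plasma call of miR-183 was lost without either of the sciatic nerve libraries (adjusted p = 0.0584), and the kidney call of miR-182 without kidney library 5 (adjusted p = 0.0697).

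The remaining higher calls depended on the libraries or the scaling. These were miR-182 in colon and lung and both members in duodenum. In colon, where 18.5% of all miRNAs were called higher, miR-182 was higher by 1.90 ± 0.56 (adjusted p = 0.0089), and miR-183 at 1.45 ± 0.62 did not pass (adjusted p = 0.0833). The miR-182 call in colon was lost once sciatic nerve, bone marrow and plasma were left out (adjusted p = 0.1). In duodenum, where 21% were called higher, miR-182 was higher by 1.70 ± 0.53 and miR-183 by 1.78 ± 0.55. Both duodenum calls were lost without duodenum library 3 (adjusted p = 0.137 and 0.145) or 5 (adjusted p = 0.126 and 0.112), and that of miR-182 also without sciatic nerve library 2 (adjusted p = 0.0543). In lung, where 20.6% were called higher, only miR-182 passed (adjusted p = 0.0414, fold 2.65), and it did not pass with DESeq2 size factors (log2 0.90, adjusted p = 0.276) or without any 1 of 10 libraries of lung, brain, colon, kidney, plasma, sciatic nerve or skeletal muscle (lowest 1.21, highest adjusted p = 0.157). In ileum and jejunum the values were 0.79 to 1.33 and did not pass, and in thymus they were 0.44 ± 0.59 and 0.05 ± 0.61. Without the 7 libraries low in tissue markers, miR-183 also passed in colon (1.67, adjusted p = 0.0107, edgeR) and lung (1.53, adjusted p = 0.0103), and miR-182 in ileum (1.52, adjusted p = 0.00572), jejunum (1.24, adjusted p = 0.0234) and thymus (1.77, adjusted p = 0.0408). These added calls are not set against the share of all miRNAs called in that setting. The thymus libraries kept, 1 and 4, were also the highest in miR-182 (1717 and 3556 RPM against 113.5 to 289.8 RPM). Leaving out the others therefore raises the thymus value by construction.

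The calls in brain and testis rested on 2 high libraries each. In brain, where 45.2% of all miRNAs were called higher, the model gave 3.80 ± 0.44 for miR-182 and 4.01 ± 0.46 for miR-183 (adjusted p = 6.52e-12 and 4.81e-12). Without brain libraries 2 and 5, chosen for these same values, the differences were −2.49 and −2.86, for which no test is given. In testis, where 34.0% were called higher, the values were 3.31 ± 0.46 and 3.04 ± 0.49. Without testis libraries 2 and 3 they were −0.60 and −1.18 and did not pass (adjusted p = 0.625 and 0.33), and without library 3 alone the miR-183 call was lost (1.20, adjusted p = 0.118). Testis libraries 2 and 3 were also the highest of testis in both members, so leaving them out lowers the testis value by construction.

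**Figure D2:**
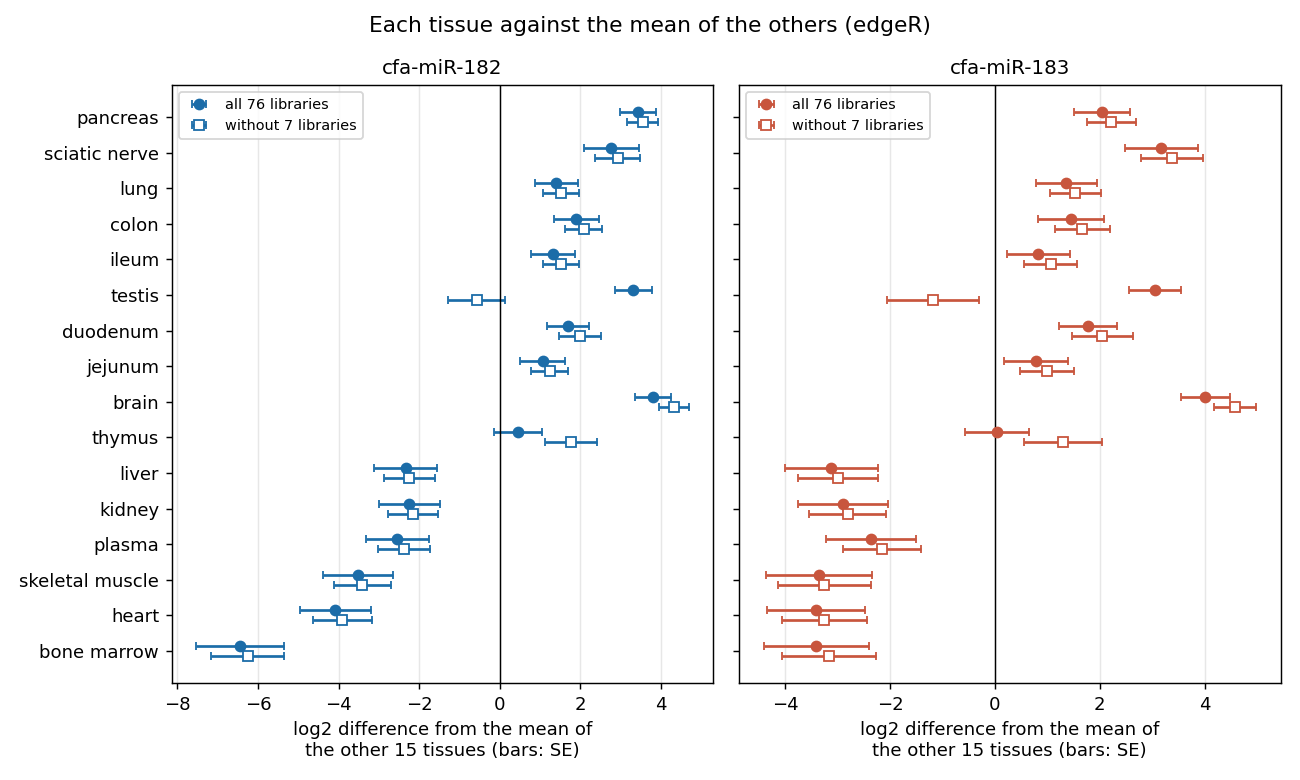
Log2 difference of each tissue from the mean of the other 15 (horizontal axis, bars are SE) for cfa-miR-182 and cfa-miR-183, with all 76 libraries (filled) and without the 7 libraries of testis, thymus and duodenum low in tissue markers (open). Testis turns to −0.58 and −1.18, thymus rises to 1.77 and 1.30 from the 2 libraries left, and brain (all its libraries kept), pancreas, sciatic nerve and the tissues at the bottom keep their side.

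Within brain, testis and thymus the libraries differed widely. The brain libraries held 29.3, 9871, 16.7, 26.4 and 2107 RPM of miR-183 and 0, 41.3, 0, 0 and 10.4 RPM of miR-96, so all 3 members were high in libraries 2 and 5 and low in the others. In those 2 libraries the 7 epithelial miRNAs (miR-200a, miR-200b, miR-200c, miR-141, miR-429, miR-203 and miR-205) summed to 1718 and 218.1 RPM, and in the other brain libraries to 26.5 to 203.6 RPM. None of the epithelial miRNAs was at 0 in library 2 and 1 was at 0 in library 5, against 2, 2 and 0 in libraries 1, 3 and 4. The 3 members summed to 53.5 and 69.3 times the epithelial sum in these libraries, against 1.65 to 10.2 times in the other brain libraries. By the epithelial sum, library 5 was close to library 1 (203.6 RPM), but 171.8 RPM of the latter was miR-203. miR-429 was at 1278 and 114.7 RPM in libraries 2 and 5 and at most 5.09 RPM in the other brain libraries. miR-141 was at 188.1 and 31.7 RPM against at most 8.81 RPM, and miR-200c and miR-200b were also highest in these 2. In library 5, miR-200a, miR-203 and miR-205 were within or below the range of libraries 1, 3 and 4. The part of the epithelial miRNAs in the brain result was not tested.

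In testis the members moved with the epithelial miRNAs and against the testis miRNAs. The libraries held 1678, 11228, 20010, 209.5 and 142.8 RPM of miR-182 and 124.4, 882.5, 2004, 13.7 and 13.9 RPM of miR-183. The epithelial sum was 1663, 7388, 13844, 82.0 and 87.1 RPM in the same order, and the members summed to 1.09 to 2.78 times that. Of these, miR-205 and miR-141 were at 2028 and 3895 RPM in library 2 and at 4495 and 6493 RPM in library 3. In libraries 4 and 5 they were at 45.3 RPM or less. The smooth muscle miRNAs 143 and 145 moved in part with them, with a sum of 91582, 287874, 239419, 75315 and 82510 RPM in libraries 1 to 5, and neither was at 0. Without testis libraries 2 and 3 the testis calls were lost, as given above, and the part of epithelial and smooth muscle miRNAs in the result was not tested.

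In thymus the order was the same for members, epithelial miRNAs and thymus markers. The libraries held 1717, 133.0, 113.5, 3556 and 289.8 RPM of miR-182 and 117.5, 19.0, 10.8, 298.4 and 33.5 RPM of miR-183. Libraries 1 and 4 held 4734 and 5501 RPM of the epithelial miRNAs against 55.9 to 134.1 RPM in the other 3, and also carried the high miR-181a of thymocytes. The part of these miRNAs in the result was not tested.

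**Figure D3:**
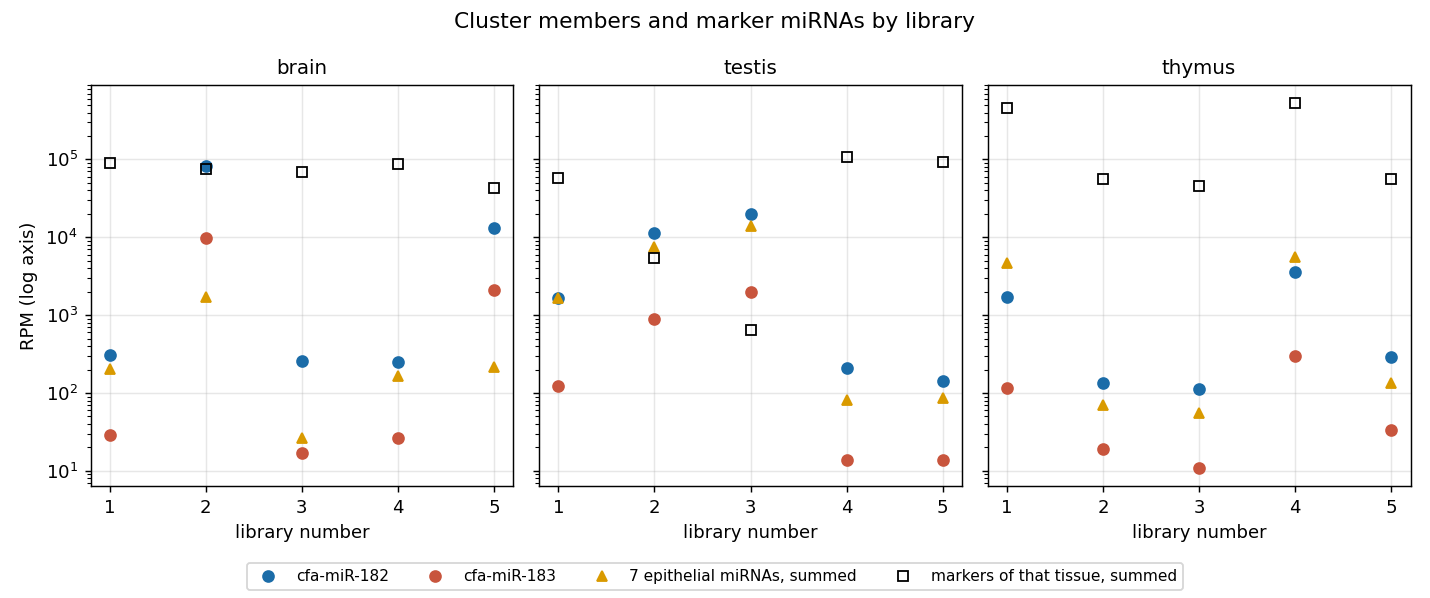
RPM (log axis) of cfa-miR-182, cfa-miR-183, the 7 epithelial miRNAs summed and the markers of the tissue summed, in libraries 1 to 5 of brain, testis and thymus. In brain libraries 2 and 5 the members rise far above the epithelial sum, in testis libraries 2 and 3 they rise with it as the testis markers fall to 5368 and 639 RPM, and in thymus libraries 1 and 4 all are high.

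Few neighbours in the order of tissue medians passed edgeR's test, in which the spread of a miRNA is shared by all tissues. For miR-182, 3 of the 15 neighbouring pairs passed edgeR's test, and for miR-183, 4 of 15. All but 1 of these pairs involved brain or testis, whose means lie far above their medians. Against its neighbours, brain was higher for miR-182 than jejunum and thymus, where 40.6% of all miRNAs were lower in jejunum than in brain and 35.4% were higher in brain than in thymus. For miR-183 the 4 pairs were jejunum below testis (30.6% of all miRNAs lower), testis above thymus (22.3% higher), thymus below brain (35.4% lower) and brain above plasma (44.6% higher). The exception was thymus above liver for miR-182, by 2.60 ± 0.90 (log2, SE, adjusted p = 0.0165, edgeR), with 24.2% of all miRNAs higher. Pancreas and sciatic nerve did not differ beyond their spread for either member. The difference pancreas minus nerve was 0.62 ± 1.16 for miR-182, and nerve minus pancreas was 1.06 ± 1.12 for miR-183. For miR-96 none of 8 neighbouring pairs passed in the order of medians, where pancreas minus testis was 0.51 ± 0.74. In the order of means testis was above brain by 1.84 ± 0.75 (adjusted p = 0.0285, edgeR), with 142 of the 480 miRNAs higher, and with total reads in place of TMM thymus was below brain by −1.93 (adjusted p = 0.0475). Without the 7 libraries low in tissue markers the calls for miR-182 went from 3 to 5 and those for miR-183 from 4 to 2, and for miR-96 pancreas was above testis by 2.67 ± 1.05 (adjusted p = 0.0323, edgeR), with 93 of 478 miRNAs higher. The testis libraries left, 1, 4 and 5, held only 3, 1 and 1 reads of miR-96, at the limit of detection. The choice of libraries therefore lowers testis in this miR-96 pair by construction. For miR-182 brain stayed above jejunum (jejunum minus brain −2.88) and thymus (2.38) and thymus above liver (3.77), while testis fell below duodenum (−2.40, adjusted p = 0.037) and heart was above bone marrow (2.21, adjusted p = 0.0386). Testis libraries 2 and 3 were the highest of testis in miR-182 (11228 and 20010 RPM), so leaving them out lowers testis by construction. These calls of miR-182 are not set against the share of all miRNAs called in that setting. For miR-183 the pairs of brain with thymus (thymus minus brain −3.07) and plasma (6.31) passed, and both pairs with testis did not.

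The gut was compared by segment and as a whole. No member passed the test between jejunum and duodenum, ileum and jejunum, or colon and ileum. For miR-182 these differences were −0.59 ± 0.85, 0.24 ± 0.85 and 0.54 ± 0.89 (log2, SE), and for miR-183 they were −0.93 ± 0.90, 0.04 ± 0.89 and 0.58 ± 0.94. The mean of the 4 gut tissues was above the mean of the other 12 by 1.87 ± 0.34 for miR-182 (adjusted p = 3.32e-06, edgeR) and by 1.51 ± 0.37 for miR-183 (adjusted p = 0.000363), with 30.6% of all miRNAs called higher. Without the 7 libraries low in tissue markers these were 2.13 ± 0.30 and 1.80 ± 0.34.

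Plasma and thymus were each compared with bone marrow, whose few reads limit both values. Plasma was above bone marrow for miR-182 by 3.66 ± 1.07 (adjusted p = 0.0033, edgeR), with 26.5% of all miRNAs higher, whereas miR-183 at 0.97 ± 1.17 did not pass. Thymus was above bone marrow by 6.45 ± 1.15 for miR-182 and 3.23 ± 1.12 for miR-183 (adjusted p = 3.93e-06 and 0.0171), with 27.5% of all miRNAs higher. Without the 7 libraries low in tissue markers these were 7.53 ± 1.05 and 4.19 ± 1.11, with only thymus libraries 1 and 4 left, the highest in both members. The thymus call of miR-183 was lost without thymus library 4 (2.06, adjusted p = 0.161) and without bone marrow library 1, 3 or 4 (2.70 to 2.99, adjusted p = 0.0535 to 0.075). Heart and skeletal muscle did not pass, at −0.53 ± 0.90 for miR-182 and −0.05 ± 1.19 for miR-183. Brain minus sciatic nerve did not pass either, at 0.97 ± 1.18 and 0.79 ± 1.22, and without brain libraries 2 and 5, chosen for their high level, the values were −5.18 and −5.95.

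Ratios between members within a library do not depend on how the library is scaled. Each tissue was compared with all other libraries by the exact rank-sum test, adjusted over the tissues, with 0.5 reads added to each count and at least 10 reads of the pair required. miR-182 exceeded miR-183 by a median of 19.7 times in the pancreas, with all 5 libraries between 17.5 and 30.3, against a median of 10.1 in the other libraries (adjusted p = 0.000451, exact test). This was the only tissue of 16 whose ratio passed. The sciatic nerve, at 7.81 and 6.11, had the lowest median after bone marrow, which had 1 library with enough reads, and did not pass (adjusted p = 0.192, exact test). In the brain the ratio was 8.31 and 6.17 in libraries 2 and 5 and 9.33 to 15.1 in the others.

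Set against miR-183, miR-96 was relatively high in pancreas and nearly absent in nerve. Set against miR-182, the pancreas did not pass (median of miR-182 over miR-96 243.1 against 282.0 in the other libraries, adjusted p = 0.739, exact test). miR-183 exceeded miR-96 by 9.58 to 13.8 times in the 5 pancreas libraries (median 11.5), below the median of 33.9 in the other libraries (adjusted p = 0.00703, exact test). In the 2 sciatic nerve libraries the ratio was 1583 and 673.7 (adjusted p = 0.00703, exact test), the former with no read of miR-96 and so set by the 0.5 reads added. With both high, miR-182 exceeded miR-96 by 12369 and 4117 times in the nerve against a median of 270.8 elsewhere (adjusted p = 0.00604, exact test). Both calls were lost without either nerve library, where 1 library against all others has little room to pass. miR-183 over miR-96 was also higher in brain (median 79.0, adjusted p = 0.00703, exact test), where libraries 2 and 5 had 237.9 and 198.0 times and the other 3 had no read of miR-96. That call was lost with 1 read added in place of 0.5 (adjusted p = 0.103, exact test). miR-182 over miR-96 was higher in brain (median 1039, adjusted p = 0.00427, exact test), a call lost with 1 read added (adjusted p = 0.0523, exact test) or with libraries at 0 reads of a member left out (adjusted p = 0.1, exact test). It was lower in skeletal muscle (adjusted p = 0.0149, exact test), where miR-96 was at 0 throughout and the ratio follows the few reads of miR-182. The muscle call was lost without muscle library 2, 4 or 5 (highest adjusted p = 0.0743).

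**Figure D4:**
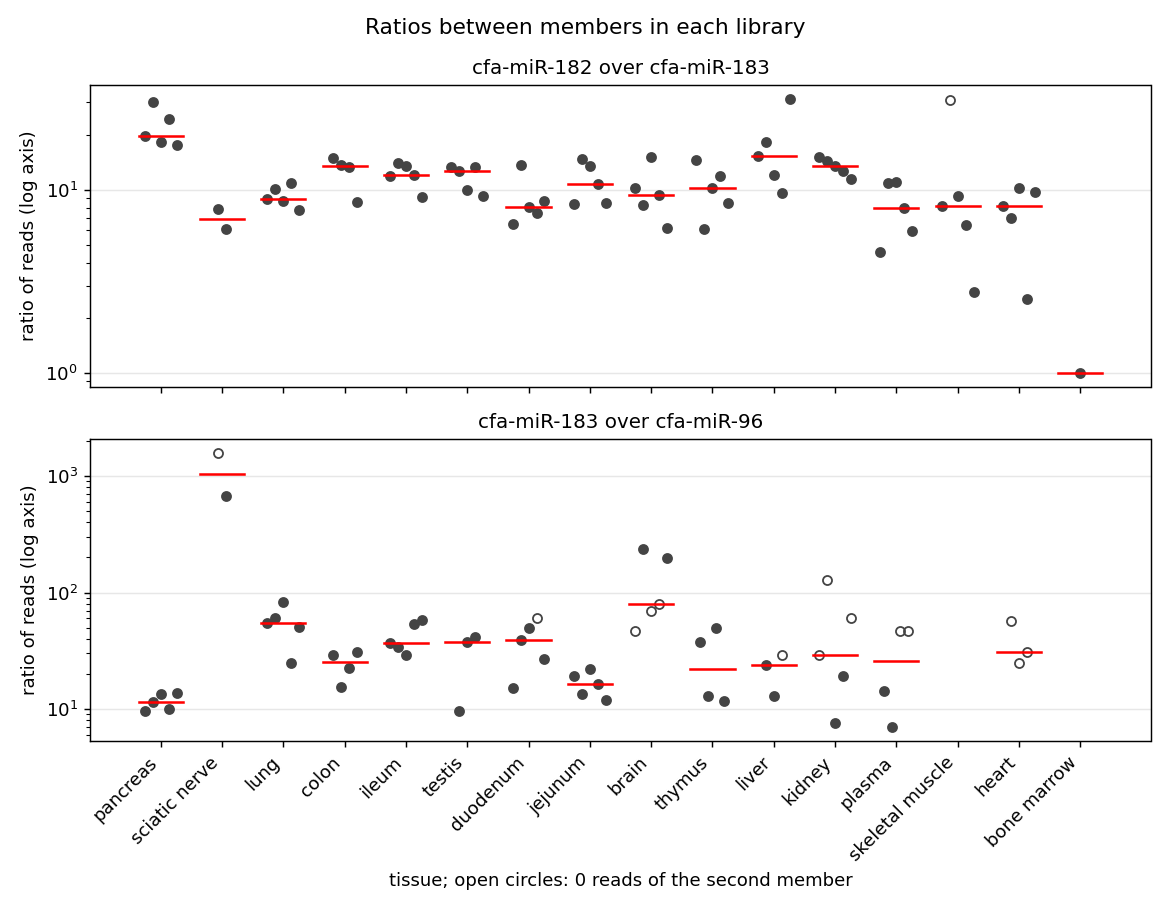
Ratio of reads of cfa-miR-182 to cfa-miR-183 and of cfa-miR-183 to cfa-miR-96 (log axes) in each library by tissue, with the median as a line and libraries with no read of the second member as open circles. Pancreas has the highest median in the first ratio (libraries from 17.5 to 30.3) and lies at 9.58 to 13.8 in the second, where sciatic nerve is highest (1583 and 673.7).

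The strand that a precursor does not usually load left few reads. The 3p arms of the cluster, listed under their human names, had 155 reads for miR-183-3p in 30 libraries, 19 reads for miR-182-3p in 8 libraries and 1 read for miR-96-3p. These were 0.279%, 0.00369% and 0.129% of the reads of the 5p members. The highest library of both miR-183-3p (53 reads) and miR-182-3p (7 reads) was brain library 2, which had also the most reads of their 5p members.

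Over the 16 tissue medians (log2 of RPM + 1), the members were more like each other than like most miRNAs. Pearson's r was 0.947 between miR-182 and miR-183, 0.776 between miR-182 and miR-96, and 0.73 between miR-183 and miR-96. Without the 7 libraries low in tissue markers r was 0.946, 0.738 and 0.694 in that order. Of 431 miRNAs with a median above 10 RPM in some tissue, the nearest to miR-182 was miR-183, and the reverse held too. miR-96 ranked 2 for both. The next for miR-182 and miR-183 were miR-200c (0.76 and 0.725), an epithelial miRNA, and miR-375 (0.76 and 0.681), a miRNA of endocrine islets, followed by the human-named miR-200b-3p (0.732) for miR-182 and miR-574-5p (0.678) for miR-183. For miR-96 the 5 nearest were miR-141-5p (0.907), miR-200c (0.898), miR-141 (0.846), miR-200b (0.811) and miR-429 (0.801), all of the miR-200 family of epithelia. miR-182 ranked 8 and miR-183 ranked 11 for miR-96. These are descriptions over 16 points that share libraries and scaling, and tissues are not replicates.

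The epithelial miRNAs were set beside the members by tissue. In the pancreas 5 of the 7 were higher by the exact test, where 7.69% of all miRNAs were, and 2 of them were TE, miR-141 (fold 10.4) and miR-200c (fold 5.07), where 2.62% of all miRNAs were. The median fold of the 7 was 4.05. In jejunum 3 of the 7 were higher (4% of all miRNAs) and 1 was TE (0.769% of all), and in colon, lung and plasma 1 was higher in each. Of the 2 endocrine miRNAs, miR-375 was TE in the pancreas (fold 83.2, adjusted p = 5.41e-06, exact test) and miR-7 was not. In bone marrow and skeletal muscle 5 of the 7 epithelial miRNAs were lower (13.4% and 11.4% of all miRNAs), in heart and plasma 2 (4.92% and 21.4%), and in brain 1 (5.38%). In the sciatic nerve none of the 7 passed the test (median fold 0.0331). With 2 libraries there, it called 0.769% of all miRNAs higher and 0% lower, so it could hardly show a lower level. The 7 summed to 182.2 and 13.7 RPM in the nerve libraries, with 1 and then 2 of them at 0. The members there summed to 7181 and 6172 RPM, which was 39.4 and 449.1 times the epithelial sum. In the pancreas the members, at 4580 to 8771 RPM, were only 0.219 to 0.451 times the epithelial sum of 18822 to 20867 RPM. In lung and colon the ratio was 0.248 to 1.13 and 0.603 to 0.907. miR-375 was at 1303 and 35.2 RPM in the 2 nerve libraries, unlike the members, which differed little between them. The glial miR-338 was at 1424 and 2199 RPM. Of the 2 listed glial miRNAs, miR-338 and miR-219-3p, 0 passed the test in nerve. The study lists miR-219-3p among its most enriched miRNAs, for brain.

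**Figure D5:**
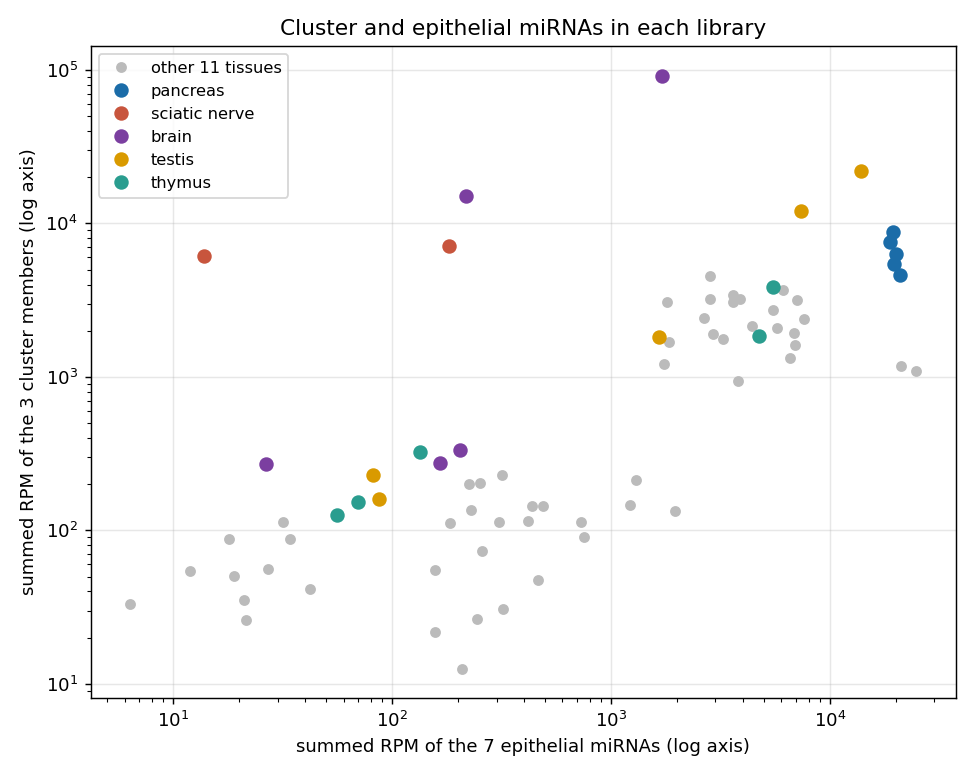
Summed RPM of the 3 cluster members (vertical, log axis) against summed RPM of the 7 epithelial miRNAs (horizontal, log axis), 1 point a library, with 5 tissues in colour. Most libraries with many epithelial reads also hold many reads of the cluster, while both sciatic nerve libraries and brain libraries 2 and 5 hold 6172 to 91980 RPM of the cluster with 13.7 to 1718 RPM of the epithelial miRNAs.

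cfa-miR-1271, a miRNA of the same family as miR-96, is encoded outside the cluster. It was highest in sciatic nerve, at 148.3 and 89.3 RPM, and in brain, with a median of 110.7 RPM and a range of 46.2 to 133.5. In the pancreas it had a median of 22.3 RPM. It was higher in brain than in the other libraries, by a fold of 2.46 (adjusted p = 0.00216, exact test), where 40.9% of all miRNAs were called higher, and did not pass in nerve (adjusted p = 0.186, exact test) or pancreas (adjusted p = 0.121, exact test). In brain libraries 2 and 5, where the cluster was high, it was at 109.4 and 119.0 RPM, within the range of the other brain libraries.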

How the data were processed

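miR-seq libraries of 16 dog tissues were used. Per the study's methods, adaptors were removed and reads were aligned to CanFam3.1, with no mismatch allowed and no read kept that aligned to over 10 places. The authors then counted a read for a miRNA where the overlap with its locus was 70% or more. The deposited counts and the deposited totals of reads on miRNAs were used. Deposited RPM differed from recomputed RPM by at most 2.89e-09 (relative difference). Counts summed to at most 1.16% more than the total of a library. Reads shared by near-identical miRNAs could not be resolved, and the deposited row of miR-183 also bears the name of a rat miRNA, rno-miR-3553. A miRNA that the table does not list in a sample was set to 0. In the table, 1 name matched no labelled sample and was left out, and 1 colon sample had labels but no values. The closest of 147 pairs of libraries of a tissue had a chi-square per degree of freedom of 10.3, so none was counted as a duplicate.

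The exact rank-sum test used midranks. edgeR 4.0.16 (TMM, filterByExpr, glmQLFit, 1 term for each tissue) tested 480 miRNAs with 60 residual degrees of freedom, and the SE is the log2 difference over the root of F. DESeq2 1.42.0 served as another fit. Versions were 4.3.3 for R and 3.11.15 for Python. Between TMM and total reads, the mean log2 library size of a tissue relative to the other tissues shifted by up to 1.13 (brain). The procedures were tested on simulated data: with 4-fold changes in a simulated pancreas, edgeR called 93.4% of 167 changed miRNAs of 415 tested, and the exact test 76.5% of 200 of 480. Of the unchanged miRNAs, edgeR called 1.61% and the exact test 2.86%. Every simulated miRNA had the same spread and the same level in all other tissues. These shares therefore do not carry over to tissues with libraries as unlike as those of brain, testis or thymus.

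The members, the marker lists and the tests were chosen with earlier results of these data known, and the left-out libraries after seeing the data: 7 libraries of testis, thymus and duodenum for low marker miRNAs of their tissue, and brain libraries 2 and 5 for the level of the members themselves. All tissues came from 5 dogs per the study's methods, which no test could take into account. Named miRNAs are the members, the listed epithelial, endocrine and marker miRNAs, the arms, and the 5 most like each member. cfa-miR-1271 was added as a known relative of miR-96 and was not found from sequences. Mature sequences were not used here, so seeds were not compared.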

Additional observations from a re-analysis of the deposited data

Results flagged for a closer look

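In 39 groups of 4 or 5 libraries, a sample was looked for whose gap to its nearest neighbour was large against the range of its group (Dixon's 95% limit), which chance alone gives in about 1 group in 20. There were 5 such samples. In brain library 2, all 3 members stood far above the next library. miR-182 was at 82068 RPM against 13005 RPM, miR-183 at 9871 RPM against 2107 RPM, and miR-96 at 41.3 RPM against 10.4 RPM. In skeletal muscle library 4, miR-182 was at 99.8 RPM against 51.0 RPM, from 22 reads. In heart library 4, miR-183 was at 24.5 RPM against 7.47 RPM, from 15 reads.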

How the results depend on the processing

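No paired analysis was possible because the labels give no dog number and the replicate numbers only follow the order of deposition. Depth limited miR-96 and both other members in bone marrow most. Of the values of the 7 calls of the exact rank test, 101 of 105 under an alternative kept direction and call and 4 lost the call, and of 517 edgeR values 456 kept both, 10 lost the call, 28 gained it and 23 turned in direction. Libraries were left out after seeing the data, the 7 of testis, thymus and duodenum for low tissue markers and brain 2 and 5 for the members' own level, so that values without the brain libraries (alone or as 9 with the 7) are descriptions. The cause of the changes below was not tested.

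TE calls of the members were 0 in the analysis as reported, 1 with no filter on level (miR-96 in pancreas), 1 with medians (miR-182 in pancreas), 2 without the 9 libraries, and 0 with any 1 library left out. The share of all pairs called was 1.68% as reported, 3.62% with no filter, 2.57% with medians and 1.83% without the 9. Higher calls of the exact test went from 2 to 4 without brain libraries 2 and 5 and to 4 without the 9 libraries, and were 2 to 3 with 1 library left out. Lower calls went from 5 to 2 after thinning and were 3 to 6 with 1 library left out. edgeR's higher calls went from 12 to 6 without sciatic nerve, bone marrow and plasma, with colon, duodenum and lung lost, and were 10 to 15 with 1 library left out, while the lower calls were 11 to 12. Fixed pairs with a call went from 3 to 5 without brain libraries 2 and 5 and to 5 without the 9, and were 2 to 3 with 1 library left out. Neighbouring pairs with a call were 3 (miR-182), 4 (miR-183) and 0 (miR-96), and 1 each in the order of means. They were 6 for miR-182 without brain libraries 2 and 5, 7 without the 9 and 5 without the 7, and 2 for miR-183 without testis libraries 2 and 3 or without the 7. For miR-96 they were 1 with total reads, without brain libraries 2 and 5, without testis libraries 2 and 3 and without the 7, and 2 without the 9. Wherever testis libraries 2 and 3 were left out, testis held only 1 to 3 reads of miR-96 a library. Tissues that differed in miR-182 over miR-96 went from 3 to 0 when libraries without reads of a member were left out. With 1 read added the brain ratios to miR-96 lost their call.

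In edgeR, brain turned to −2.49 (miR-182) and −2.86 (miR-183) without brain libraries 2 and 5, and to −2.25 and −2.59 without the 9. Testis turned to −0.60 and −1.18 without testis libraries 2 and 3, to −0.26 and −0.79 without the 9, and to −0.58 and −1.18 without the 7. Brain minus sciatic nerve turned to −5.18 and −5.95, and to −5.10 and −5.88. Thymus for miR-183 was −0.010 with DESeq2 size factors and −0.13 without sciatic nerve, bone marrow and plasma. Ileum minus jejunum for miR-183 was −0.064 with DESeq2 size factors. Plasma minus bone marrow for miR-183 was −0.15 with total reads. Heart minus skeletal muscle for miR-183 was 0.24 with total reads, 0.13 with no filter, 0.027 in DESeq2, 0.075 without brain libraries 2 and 5, and 0.014 without testis libraries 2 and 3.

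With 1 library left out, thymus ran from −0.72 to 0.92 for miR-182 and from −1.12 to 0.52 for miR-183. Ileum minus jejunum ran from −0.014 to 0.40 and from −0.13 to 0.15, and brain minus sciatic nerve from −1.04 to 1.47 and from −0.91 to 1.27. Heart minus skeletal muscle ran from −0.97 to 0.43 for miR-183.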
